A study of Mus musculus with 12 samples.

Results

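Small nucleolar RNAs and small Cajal body RNAs were examined in mouse striatum, as the genes whose array probe set carried exactly 1 platform symbol beginning with Snora, Snord or Scarna. These prefixes stand for the H/ACA class, the C/D class and the Cajal body RNAs. Of 19938 named genes, 54 met the rule, 20 of them H/ACA, 31 C/D and 3 Cajal body RNAs. A symbol with several probe sets was represented by the one with the highest mean. A further 41 probe sets carried such a symbol together with other symbols and were not counted. The striatum came from male mice aged 90 days on a mixed background of 129, CD-1, C57BL/6 and FV, and 12 whole-transcript Affymetrix arrays formed 4 groups of 3. All mice were homozygous for a knock-in allele of the Huntington's disease gene with a stretch of CAG-encoded glutamines, either HdhQ20/Q20, the control length, or HdhQ111/Q111, the expanded length. Each allele was combined with mGluR5+/+ or with mGluR5-/-, a knockout of the metabotropic glutamate receptor encoded by Grm5. Whether the 3 arrays per genotype stem from different mice is not given in the labels, and the p-values therefore cover the spread among arrays, which may be technical. Strain alleles carried along with either engineered locus cannot be told apart from the genotypes.

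Small nucleolar RNAs pair with ribosomal RNA in the nucleolus and guide its chemical modification. C/D members bring fibrillarin to sites of ribose methylation, and H/ACA members bring dyskerin to uridines that become pseudouridine. A few act in the cutting of the ribosomal precursor, and Cajal body RNAs guide the same reactions on the RNAs of the spliceosome. Most mammalian members lie in introns of other genes, often of genes for ribosomal proteins, and are released when the spliced intron is debranched and trimmed by exonucleases. A probe set for such a member cannot separate the mature small RNA from the unspliced host transcript that contains it.

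The members had this arrangement. In RefSeq, 53 of the 54 lay inside another gene. Snord118, also called U8, had no such host. A coding host was found for 41 members, 21 of these in a ribosomal protein gene, and 12 had non-coding hosts alone. No host held 3 or more members and 10 held 2. H/ACA members were 61 to 205 bases long with a median of 125, and C/D members were 45 to 148 bases long with a median of 68. Among the Cajal body RNAs, Scarna17 measured 62, Scarna8 118 and Scarna13 275 bases.

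Promoters were printed for the host of Snord53, which was called, and for the hosts of Snord104, Snora73a and Snora73b, which were not called. Hspa8 holds Snord14e. Wdr43, a subunit of the small-subunit processome that assembles on the ribosomal precursor, holds Snord53. Gm36220 holds Snord104, and Snhg3 holds Snora73a and Snora73b. The windows run from 250 bases before to 50 bases after the start given by RefSeq on GRCm38.p6. They are chr17:71615965-71616264 on the plus strand, chr11:106500665-106500964 on the plus strand and chr4:132353637-132353936 on the minus strand. Capitals mark CACGTG, the E-box bound by Myc-type factors, which reads the same on both strands.
Wdr43: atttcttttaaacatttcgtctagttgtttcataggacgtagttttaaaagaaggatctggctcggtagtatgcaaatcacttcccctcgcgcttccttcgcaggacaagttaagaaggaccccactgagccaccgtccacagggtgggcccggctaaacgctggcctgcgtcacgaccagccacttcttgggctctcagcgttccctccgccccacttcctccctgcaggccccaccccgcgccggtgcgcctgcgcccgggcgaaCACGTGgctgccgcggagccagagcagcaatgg
Gm36220: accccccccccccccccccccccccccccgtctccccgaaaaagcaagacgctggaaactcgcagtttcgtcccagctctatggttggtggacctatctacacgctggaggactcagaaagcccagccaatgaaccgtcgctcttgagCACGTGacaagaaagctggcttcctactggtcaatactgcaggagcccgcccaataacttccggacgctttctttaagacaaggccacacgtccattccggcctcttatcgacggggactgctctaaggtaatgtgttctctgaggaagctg
Snhg3: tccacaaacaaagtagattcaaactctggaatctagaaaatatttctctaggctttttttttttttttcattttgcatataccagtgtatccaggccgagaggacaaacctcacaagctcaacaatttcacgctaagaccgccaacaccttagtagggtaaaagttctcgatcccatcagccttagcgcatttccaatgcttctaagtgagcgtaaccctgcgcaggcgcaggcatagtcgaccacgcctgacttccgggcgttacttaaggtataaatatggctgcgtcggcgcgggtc
The motif began at base 18 after the start in Wdr43 and at position -102, before the start, in Gm36220, and was not among the letters of the Snhg3 window. It was present in 6 of 35 host windows, which came from 33 of the 46 host genes and make 17.1%. The other 13 host genes, Hspa8 among them, had no window. Among all 32851 windows of the same length 7.15% held it. A match is a description of letters and was not measured as a binding site.

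The deposited values are log2 signals. Array medians lay between 7.05 and 7.16, and interquartile ranges between 2.56 and 2.95, with the narrowest in replicate 3 of the Q111 mice with mGluR5. The targeted Grm5 probe set read 10.93 to 11.17 in the 6 mGluR5-/- arrays and 11.85 to 12.08 in the 6 mGluR5+/+ arrays, so the labels and the array were not at odds. Htt read 9.71 to 10.05. The 9 tested markers of striatal projection neurons, among them the phosphoprotein gene Ppp1r1b and the receptor gene Drd2, had mean signals of 10.90 to 12.87, and no marker in this list was called in any simple comparison. In bulk tissue, fewer cells of a type and less RNA per cell cannot be told apart. A gene was tested where 3 or more arrays placed its signal above their own 25th percentile, and 16721 genes with 46 members remained (19 H/ACA, 24 C/D and 3 Cajal body RNAs). Of these members 44 passed in all 12 arrays. Snord73b passed in 8 arrays and Snord96a in 10. The 8 members not tested were Snora2b, Snord37, Snord38a, Snord52, Snord58b, Snord61, Snord73a and Snord87, with mean signals of 3.60 to 5.58.

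Snord53, a C/D guide, stood high in the Q111 mice that had mGluR5. Its signals were 8.80, 8.26 and 8.31 there, against 6.66, 6.70 and 6.76 in Q20 mice with mGluR5. They were 6.73, 6.57 and 7.06 in Q20 mice without mGluR5, and 6.78, 6.64 and 6.96 in Q111 mice without it. The 3 high arrays lay 1.21 above the highest of the other 9, and the other 3 groups overlapped one another. With mGluR5, the Q111 allele raised Snord53 by 1.75 ± 0.15 (SE, 3 against 3 arrays) on the log2 scale, or 3.37-fold (limma, adjusted p = 1.48e-05). It was 1 of 46 members called at an adjusted p below 0.05 in that comparison, where 0.574% of all tested genes were called and 0.299% were called higher. Only 3 of the 16721 tested genes had a larger fitted rise.

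Loss of mGluR5 lowered Snord53 in Q111 mice and not detectably in Q20 mice. In Q111 mice the log2 change was -1.66 ± 0.15 (limma, adjusted p = 1.96e-05). In Q20 mice it was 0.08 ± 0.15 (adjusted p = 0.998). The Q111 allele without mGluR5 gave 0.01 ± 0.15 (adjusted p = 0.989). The difference between the effects of the allele, tested as an interaction, was -1.74 ± 0.21 (limma, adjusted p = 0.00114), and Snord53 was the only member called in it, beside 0.437% of all genes. These comparisons share the 3 arrays of Q111 mice with mGluR5. With each of the 12 arrays left out in turn, the rise with mGluR5 stayed between 1.58 and 1.85, with adjusted p from 7.36e-06 to 0.000229.

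The host of Snord53 did not follow it. Wdr43 read 8.28, 8.41 and 8.20 in Q20 mice with mGluR5 and 8.06, 8.51 and 7.91 in Q111 mice with mGluR5, and these groups overlapped. Its log2 change was -0.14 ± 0.13 with the Q111 allele in the presence of mGluR5 (limma, adjusted p = 0.965). On mGluR5 loss in Q111 mice it was 0.10 ± 0.13 (adjusted p = 0.9999). None of the 5 tested genes on either side of Snord53 was called in either comparison, and their changes ran from -0.18 to 0.11 in the first and from -0.10 to 0.20 in the second.

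**Figure D1:**
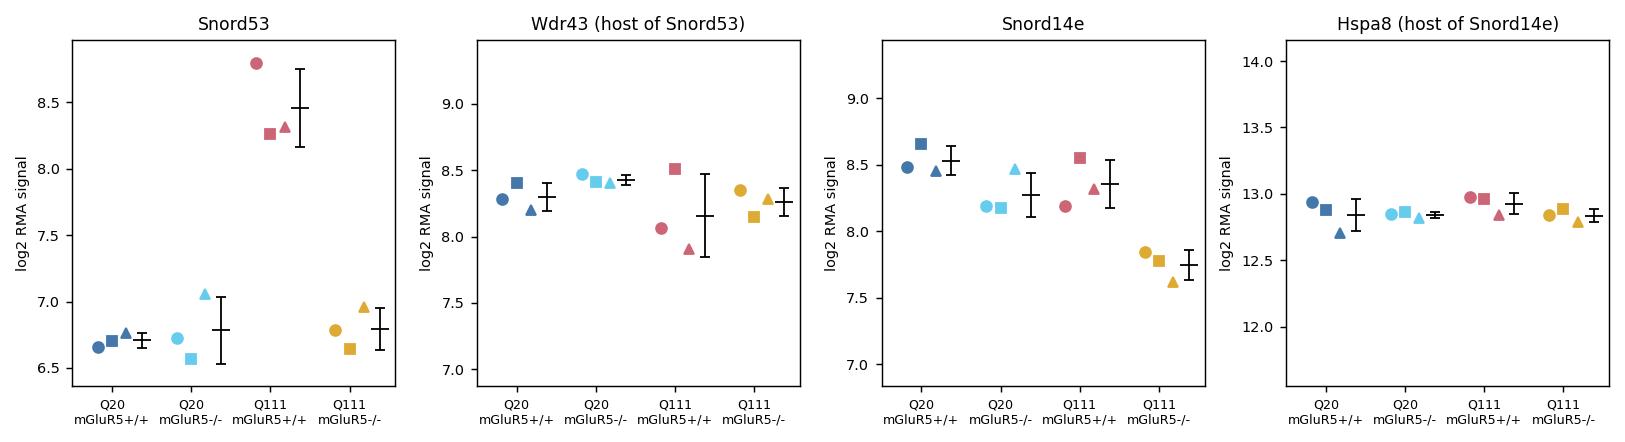
Log2 RMA signal (vertical axes, each spanning 2.6 units) of Snord53, its host Wdr43, Snord14e and its host Hspa8 in the 4 groups, with circle, square and triangle for replicates 1, 2 and 3 and a black bar for the mean ± SD of 3 arrays. Snord53 read 8.26 to 8.80 in Q111 mice with mGluR5 and at most 7.06 elsewhere, Snord14e read 7.62 to 7.84 in Q111 mice without mGluR5 and at least 8.17 elsewhere, and neither host gene was called in any comparison.

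Snord14e, a member of the U14 family that takes part in the cutting of the small-subunit ribosomal RNA, was lowest in the mice with both alterations. Its signals were 7.84, 7.77 and 7.62 in Q111 mice without mGluR5. They were 8.48, 8.65 and 8.46 in Q20 mice with mGluR5, 8.19, 8.17 and 8.47 in Q20 mice without it, and 8.19, 8.55 and 8.32 in Q111 mice with it. The 3 low arrays lay 0.328 below the lowest of the other 9, and the other 3 groups overlapped one another. In mice without mGluR5 the Q111 allele lowered Snord14e by a log2 change of -0.53 ± 0.12 (limma, adjusted p = 0.0439), as 1 of 46 members called beside 0.885% of all genes. In Q111 mice the loss of mGluR5 lowered it by a log2 change of -0.61 ± 0.12 (limma, adjusted p = 0.037). There Snord53 and Snord14e were the 2 of 46 members called, both lower, beside 0.275% of all genes.

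In the presence of mGluR5 the allele gave -0.18 ± 0.12 for Snord14e, and mGluR5 loss in Q20 mice gave -0.26 ± 0.12, neither called. The interaction, the effect of the allele without mGluR5 minus that with it, was -0.35 ± 0.16 and was not called (limma, adjusted p = 0.917). The calls on Snord14e were close to the threshold. With 1 array left out, the call for the allele without mGluR5 was lost in 9 of 12 fits (adjusted p from 0.0156 to 0.221), and that for mGluR5 loss in Q111 mice in 8 of 12 (adjusted p from 0.0302 to 0.229). The change itself stayed below 0 throughout, between -0.58 and -0.43 and between -0.69 and -0.51.

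Hspa8, the constitutive heat shock chaperone gene that holds Snord14e, had log2 changes of -0.01 ± 0.09 and -0.09 ± 0.09 in these comparisons. Of the 10 tested neighbours of Snord14e, Clmp, which encodes an adhesion protein of cell junctions, was called in both. Clmp changed by -0.56 ± 0.11 with the allele in mice without mGluR5 (limma, adjusted p = 0.0299) and by -0.73 ± 0.11 on mGluR5 loss in Q111 mice (adjusted p = 0.00752). The part of a shared chromosomal region in the fall of Snord14e was not tested. Copies of the U14 family are similar in sequence, and how far the probe set separates them is not given in the sources used here.

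Averaged over both receptor genotypes, the Q111 allele raised Snord53 and lowered Snord14e, 2 of 46 members beside 1.32% of all genes (0.496% higher and 0.825% lower). The averaged changes were 0.88 ± 0.10 (limma, adjusted p = 0.000271) and -0.35 ± 0.08 (adjusted p = 0.048). Averaged over both alleles, mGluR5 loss lowered both members, beside 0.293% of all genes, by changes of -0.79 ± 0.10 (adjusted p = 0.00189) and -0.43 ± 0.08 (adjusted p = 0.0349). With 1 array left out, the Snord14e call was lost in 11 of 12 fits for the averaged allele effect (limma, adjusted p from 0.0113 to 0.147) and in 9 of 12 for averaged mGluR5 loss (adjusted p from 0.0228 to 0.134). Its averaged allele call was also lost without the filter on low values (adjusted p = 0.0585) and with limma's array weights (adjusted p = 0.0764), and neither average met the authors' criteria, an unadjusted p below 0.05 with a 1.5-fold change. For Snord53 each average joins a large change with one near 0.

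Apart from Snord53, members lay mostly below 0 for the Q111 allele in the presence of mGluR5. Negative changes were found for 13 of 19 H/ACA members and 19 of 24 C/D members, with medians of -0.13 and -0.15. Over all tested genes 54.1% were negative and the median was -0.01. At an unadjusted p below 0.05 stood 12 of 46 members, 11 of them lower, which is 26.1% beside 6.84% of all genes. Groups did not overlap for 1 higher and 8 lower members, 19.6% of the 46 beside 9.69% of all genes (4.39% higher and 5.3% lower).

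Single arrays of both groups moved with this pattern. Replicate 3 of the Q111 mice with mGluR5, which had the narrowest spread of values, was the lowest of the 12 arrays for 18 of 46 members (39.1%) and for 20.9% of all genes. Without it 34 of 46 members were still negative, beside 49.7% of all genes, and the medians were -0.09 for H/ACA and -0.11 for C/D members. In the reference group, replicate 1 of the Q20 mice with mGluR5 was the highest of the 12 arrays for 12 of 46 members, beside 6.39% of all genes. Without that array 33 of 46 members were negative, beside 53.9% of all genes. The part of RNA quality or array quality in these values was not tested.

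**Figure D2:**
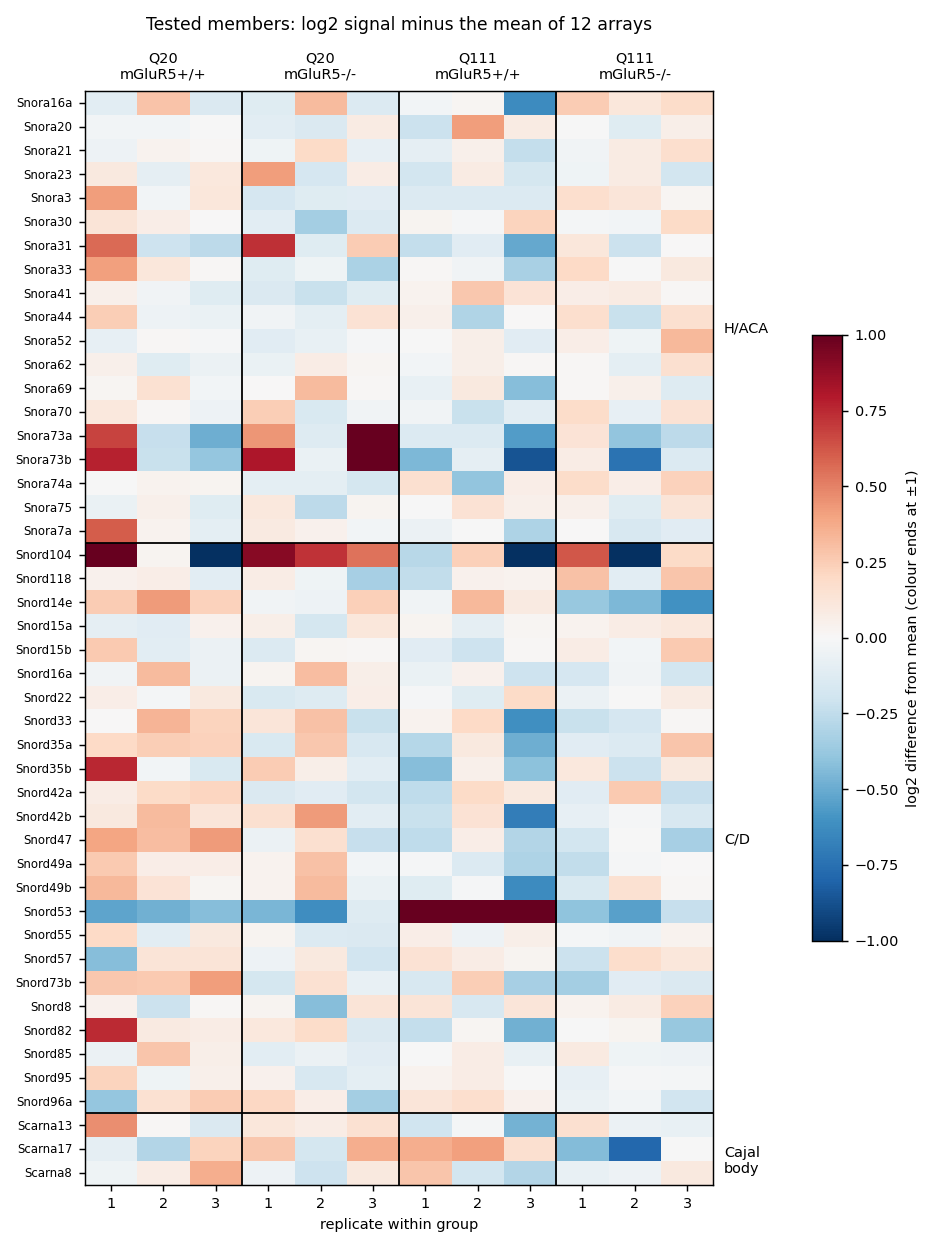
Log2 signal of each of the 46 tested members (rows, by class) in each of the 12 arrays (columns, by group and replicate) minus the member's mean over all arrays, with red above and blue below the mean and colours ending at ±1. Snord53 is red in all 3 arrays of Q111 mice with mGluR5, and replicate 3 of that group is the lowest array for 18 members.

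Snord47 came closest to a call among the lower members. It lies in an intron of Gas5, a growth-arrest transcript that codes for no protein. Its signals were 8.001, 7.92 and 8.03 in Q20 mice with mGluR5 and 7.35, 7.68 and 7.31 in Q111 mice with mGluR5, without overlap. The log2 change was -0.54 ± 0.12 (limma, adjusted p = 0.0818). With 1 array left out in turn the change ran from -0.65 to -0.47 (limma, adjusted p from 0.0185 to 0.323). Snord47 was called in 1 of these 12 fits, the one without replicate 2 of those Q111 mice. It was also called with each array's interquartile range as a covariate, at -0.46 (limma, adjusted p = 0.0119), and with array weights estimated gene by gene, a setting chosen after seeing the data, at -0.63 (adjusted p = 0.00075). In Q20 mice without mGluR5 the signals were 7.55, 7.77 and 7.38, a change of -0.42 ± 0.12 on receptor loss (adjusted p = 0.33; 0.0148 with that covariate and 0.0107 with those weights), and in Q111 mice without it 7.42, 7.60 and 7.27. All 3 arrays of Q20 mice with mGluR5 thus lay above the other 9. Gas5 changed by -0.34 ± 0.13 with the allele in the presence of mGluR5 (adjusted p = 0.56).

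Snord82 lies in Ncl, the gene of the nucleolar protein nucleolin. It read 10.90, 10.24 and 10.22 in Q20 mice with mGluR5 and 9.91, 10.17 and 9.67 in Q111 mice with mGluR5, a change of -0.54 ± 0.18 (limma, adjusted p = 0.381). With replicate 1 of these Q20 mice left out the change was -0.31. Other C/D members with an unadjusted p below 0.05 were Snord35a, Snord35b, Snord42b, Snord49a, Snord49b and Snord73b, with changes between -0.45 and -0.28. Among C/D members not passing the test, Snord57, in an intron of the C/D protein gene Nop56, had the highest value, 0.14 ± 0.15.

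Among H/ACA members in the same comparison the lowest values belonged to Snora73b, at -0.52 ± 0.34, and Snora31, at -0.32 ± 0.22. The highest belonged to Snora41, at 0.18 ± 0.09, and Snora20, at 0.11 ± 0.13. With equal array weights and no further term, no H/ACA member was called in any of the 7 comparisons (limma). The numbers of H/ACA members at an unadjusted p below 0.05 were 2, 6, 3 and 2 of 19 in the 4 simple comparisons, beside 6.84, 9.44, 6.02 and 4.36% of all genes.

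Without mGluR5 the Q111 allele gave no shift common to both classes. H/ACA members were mostly above 0, with a median of 0.05, 13 of 19 positive and 6 negative. This majority depended on single arrays. Dropping replicate 2 from the knockout Q20 group left 10 of 19 negative, with a median of -0.010. Dropping replicate 3 from the knockout Q111 group left 9 of 19 negative. C/D members had a median of -0.03 with 12 of 24 negative. All genes had a median of -0.02 and 56.7% negative. Non-overlap was found for 6 higher and 2 lower members, 17.4% of the 46 beside 19.1% of all genes (6.07% higher and 13% lower). H/ACA members made up 5 of the higher ones, 26.3% of the 19, and 0 of the lower ones. At an unadjusted p below 0.05 stood 9 of 46 members, 4 higher and 5 lower, which is 19.6% beside 9.44% of all genes. Values at the upper end were Snora74a at 0.29 ± 0.12, Snora33 at 0.26 ± 0.12, Snord118 at 0.26 ± 0.13 and Snord8 at 0.20 ± 0.14. At the lower end beside Snord14e stood Snord104 at -0.96 ± 0.58, Snora73b at -0.95 ± 0.34 and Snora73a at -0.64 ± 0.29, and none of these 7 was called.

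Snora3 and Snora33, in introns of the ribosomal protein genes Rpl27a and Rps12, had opposite signs with and without the receptor. Snora3 read 10.84, 10.40 and 10.53 in Q20 mice with mGluR5, 10.28, 10.29 and 10.29 in Q111 mice with it, 10.25, 10.30 and 10.31 in Q20 mice without it, and 10.59, 10.54 and 10.44 in Q111 mice without it. Both pairs of groups did not overlap, in opposite directions. The interaction was 0.54 ± 0.15 for Snora3 (limma, adjusted p = 0.259) and 0.56 ± 0.17 for Snora33 (adjusted p = 0.461), so neither difference passed. Over all 46 members 33 had a positive and 13 a negative interaction, 28.3% negative beside 53.6% of all genes. The medians were 0.14 for H/ACA and 0.12 for C/D members beside -0.01 for all genes. Replicate 1 of the Q20 mice with mGluR5, the highest array for 12 of 46 members, enters the interaction with a plus sign. Replicate 3 of the Q111 mice with mGluR5, the lowest for 18 of 46, enters it with a minus sign. Both placements raise the interaction, and its signs without these arrays were not counted.

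No member was called for mGluR5 loss in Q20 mice (limma), beside 0.299% of all genes. At an unadjusted p below 0.05 stood 7 of 46 members, all lower, which is 15.2% beside 6.02% of all genes. C/D members had a median of -0.11 with 19 of 24 negative, H/ACA members a median of -0.0028 with 10 of 19 negative, and all genes a median of 0.02 with 43.0% negative. The C/D count depended on single arrays and ran from 15 to 20 of 24 when each was dropped in turn. It was 15 on dropping replicate 1 from the receptor-bearing Q20 group or replicate 3 from the knockout Q20 group. These fits left 26 and 27 of 46 members negative, beside 43.6 and 44.5% of all genes. Groups did not overlap for 8 members, all lower, or 17.4% beside 12.8% of all genes (7.89% higher and 4.92% lower). The largest values were again in the members of wide spread, with 0.77 ± 0.58 for Snord104, 0.63 ± 0.34 for Snora73b and 0.48 ± 0.29 for Snora73a. The C/D member Snord73b gave -0.35 ± 0.13.

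On mGluR5 loss in Q111 mice, H/ACA members had a median of 0.12 with 15 of 19 positive. C/D members had a median of 0.00098 and all genes one of 0.0063. Leaving out replicate 3 of the receptor-bearing Q111 mice gave an H/ACA median of 0.04. Non-overlap was found for 3 higher and 5 lower members, 17.4% beside 7.46% of all genes (3.77% higher and 3.69% lower). At an unadjusted p below 0.05 stood 5 of 46 members, 2 higher and 3 lower, which is 10.9% beside 4.36% of all genes. Snora16a, which shares the host Snhg12 with Snora44, had the largest positive value, 0.40 ± 0.17. Among C/D members the largest were those of Snord35b, 0.26 ± 0.20, and Snord49b, 0.26 ± 0.15.

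**Figure D3:**
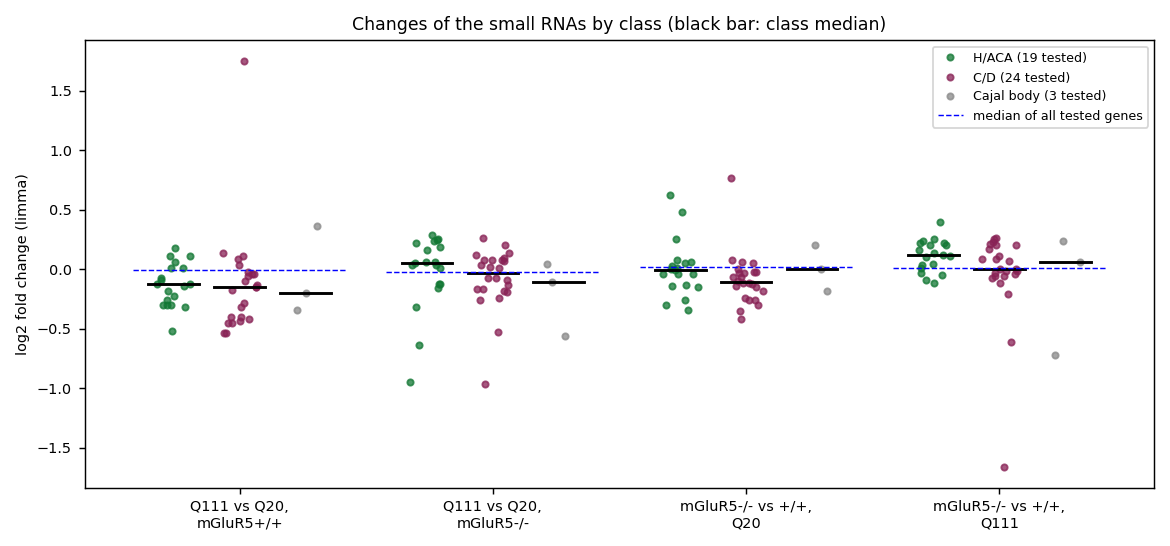
Log2 fold change from limma (vertical axis) of each tested H/ACA, C/D and Cajal body member (points) in the 4 simple comparisons, with class medians as black bars and the median of all 16721 tested genes as a dashed line. Snord53 is the point at 1.75 in the first comparison and at -1.66 in the last, and the class medians lie between -0.20 and 0.12.

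With equal array weights and no term beyond the 4 groups, the 3 Cajal body RNAs were not called in any of the 7 comparisons (limma), with 1 of 3 at an unadjusted p below 0.05 in each simple comparison except mGluR5 loss in Q20 mice, where there was none. Scarna17, in the non-coding gene Gm41774, read 9.94, 9.74 and 10.25 in Q20 mice with mGluR5 and 10.30, 9.85 and 10.39 in Q20 mice without it. It read 10.39, 10.44 and 10.19 in Q111 mice with mGluR5 and 9.59, 9.24 and 10.02 in Q111 mice without it. The Q111 groups did not overlap. The change on mGluR5 loss in Q111 mice was -0.72 ± 0.19 (limma, adjusted p = 0.204), and the interaction was -0.92 ± 0.26 (adjusted p = 0.322). Both met the authors' criteria, which use an unadjusted p, and both were called with array weights estimated gene by gene (limma, adjusted p = 0.00814 and 0.0196). With 1 array left out in turn neither was called in any fit. The loss effect then ran from -0.92 to -0.53 (limma, adjusted p from 0.0591 to 0.787). The interaction ran from -1.12 to -0.73 (adjusted p from 0.0801 to 0.684). With the allele Scarna17 changed by 0.36 ± 0.19 in the presence and by -0.56 ± 0.19 in the absence of the receptor. The latter was called with the gene-by-gene weights (limma, adjusted p = 0.0102).

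Scarna13, in the host transcript Snhg10, changed by -0.34 ± 0.15 with the allele in the presence of mGluR5, from 9.73, 9.27 and 9.12 to 9.06, 9.24 and 8.79. These groups overlapped. Scarna8, also called U92, lies in Haus6 and guides modification of a spliceosomal RNA. It ranged from 6.08 to 6.73 over the 12 arrays, and its simple changes lay between -0.20 and 0.06.

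Members varied more between arrays of 1 group than genes in general. The median within-group SD was 0.18 for members and 0.14 for all tested genes, 34 of 46 members lay above the latter, and 12 of 46 lay above the 90th percentile of all genes. Snord104 had the widest within-group SD of all 16721 tested genes, 0.963. It read 12.45, 11.22 and 9.79 in Q20 mice with mGluR5, 12.10, 11.92 and 11.74 in Q20 mice without it, 10.92, 11.44 and 9.91 in Q111 mice with mGluR5, and 11.81, 9.66 and 11.39 in Q111 mice without it. Every group except the Q20 mice without mGluR5 thus held an array below 10. Other members spread less, with Snora52, in the ribosomal protein gene Rplp2, at 11.72 to 12.16, Snord57 at 11.46 to 12.06, Snora7a, in Rpl32, at 10.34 to 11.25 and Snord49b at 9.96 to 10.92. Snora41 had a within-group SD of 0.079 and ranged from 5.99 to 6.48.

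Snora73a and Snora73b, the U17 RNAs, which are known to act in the cutting of the small-subunit ribosomal RNA, were next in spread among members, at ranks 24 and 8 of all tested genes. Snora73b read 9.49, 8.50 and 8.34 in Q20 mice with mGluR5 and 9.53, 8.65 and 10.02 in Q20 mice without it. Snora73b read 8.27, 8.64 and 7.86 in Q111 mice with mGluR5 and 8.80, 7.99 and 8.58 in Q111 mice without it. Snora73a followed the same arrays, with 9.18, 8.27 and 8.01, then 8.95, 8.38 and 9.59, then 8.37, 8.37 and 7.94, then 8.64, 8.11 and 8.24 in the same order of groups. The highest arrays of both were replicate 1 of the Q20 mice with mGluR5 and replicates 1 and 3 of the Q20 mice without it. In each of the 4 simple comparisons the groups overlapped.

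**Figure D4:**
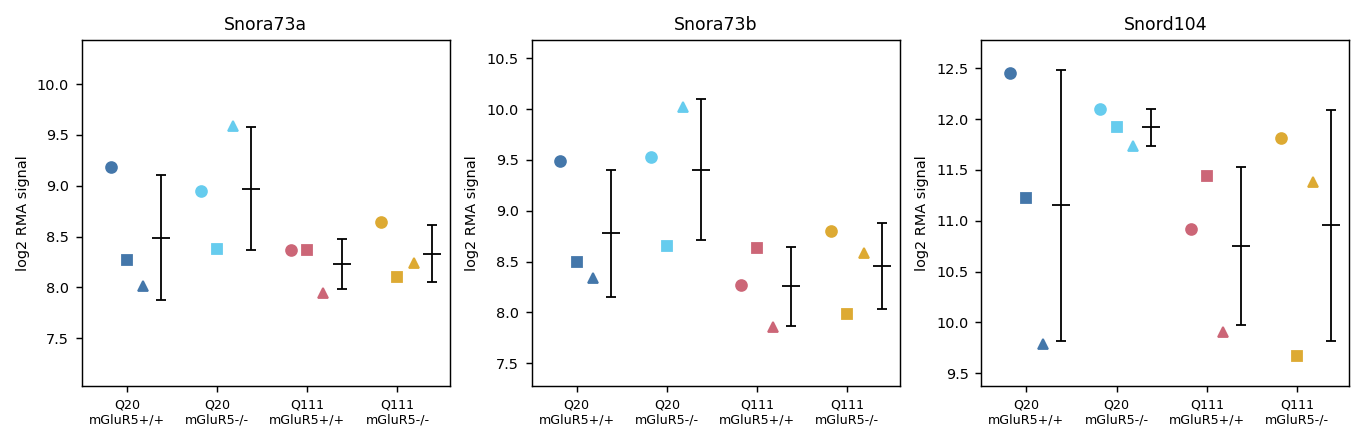
Log2 RMA signal (vertical axes, each spanning 3.4 units) of Snora73a, Snora73b and Snord104 in the 4 groups, with circle, square and triangle for replicates 1, 2 and 3 and a black bar for the mean ± SD of 3 arrays. Snora73a and Snora73b are high in the same arrays, and Snord104 ranges from 9.66 to 12.45 with groups that overlap in every simple comparison.

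Across the 12 arrays Snora73a and Snora73b moved together. Pearson's r was 0.961 and Spearman's rho 0.902 (permutation test, adjusted p = 0.00024 and 0.00128 over 8 pairs). Without the 2 arrays farthest from the median r was 0.914, and with group means removed it was 0.952. Their sequences are near copies, and how far each probe set measures its own RNA is not given in the sources used here. Snord49a and Snord49b, from 2410006H16Rik, gave r = 0.878 and rho = 0.839 (permutation test, adjusted p = 0.00052 and 0.00556), with 0.81 after leaving out 2 arrays and 0.853 within groups. Snord33 and Snord35a, from the ribosomal protein gene Rpl13a, gave r = 0.783 and rho = 0.629 (permutation test, adjusted p = 0.00491 and 0.0865), and r was 0.58 without 2 arrays.

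Not all pairs that shared a host moved together. The other 5 pairs had r between -0.407 and 0.175, none with an adjusted p below 0.05 (permutation test). Pairs from different hosts were not correlated, so the part of a shared host in any of these values was not tested. Each member of the 3 correlated pairs above was lowest in replicate 3 of the Q111 mice with mGluR5. That array was the lowest for 39.1% of all members. Snora75 and Snord82, an H/ACA and a C/D member of Ncl, gave r = -0.407 and rho = -0.427 (permutation test, adjusted p = 0.38 and 0.335). Snord95 and Snord96a, from Rack1, gave r = -0.104, and r was 0.775 without the 2 farthest arrays, so this value rests on those arrays.

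The median absolute change was smaller for hosts than for members in each simple comparison. For 25 tested members with a tested host, in 22 host genes, the median absolute log2 change was 0.149 for members and 0.108 for hosts with the allele in the presence of mGluR5. Without the receptor it was 0.16 and 0.0976, on mGluR5 loss in Q20 mice 0.0746 and 0.0664, and in Q111 mice 0.114 and 0.0726. Member and host had the same sign in 8, 11, 16 and 12 of the 25 pairs in this order of comparisons. One host in these pairs was called, the ribosomal protein gene Rps3a1, which rose by 0.56 ± 0.12 with the allele in mice without mGluR5 (limma, adjusted p = 0.0359), while its member Snord73b changed by -0.17 ± 0.13.

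**Figure D5:**
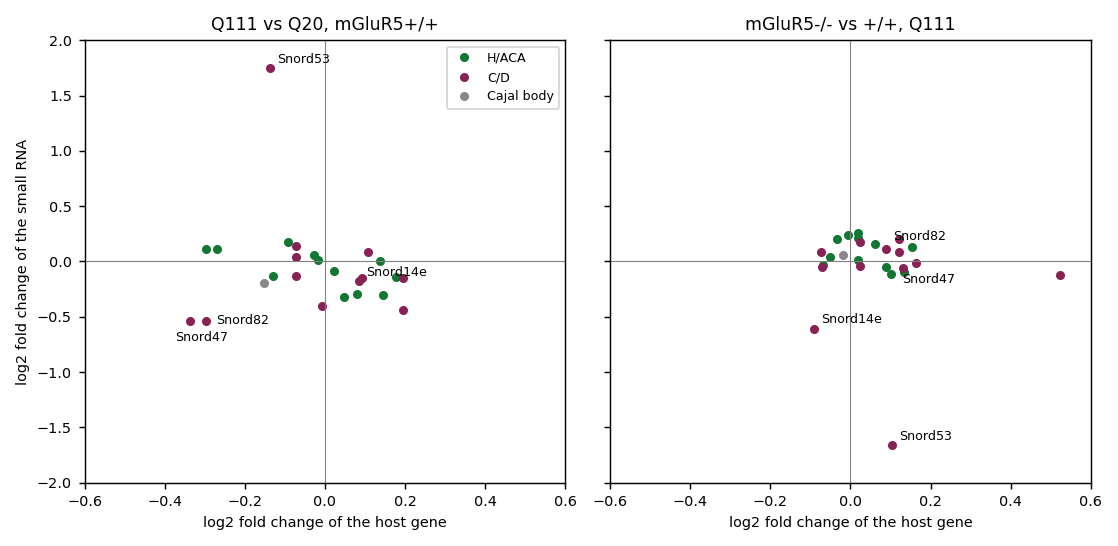
Log2 fold change of the small RNA (vertical axis) against that of its host gene (horizontal axis, a narrower range) for 25 pairs of tested members and hosts, with the Q111 allele in mGluR5+/+ mice on the left and of mGluR5 loss in Q111 mice on the right. The sign was shared by 8 and 12 of 25 pairs, and Snord53 lies at 1.75 and -1.66 against host values of -0.14 and 0.10.

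The proteins that bind or make these RNAs were measured as separate lists. Among the 4 H/ACA proteins (dyskerin, Nop10, Nhp2 and Gar1) and the 5 tested C/D proteins no gene was called and none had an unadjusted p below 0.05 in the 4 simple comparisons. Of 10 assembly factors none was called, and 1 each had an unadjusted p below 0.05 for the allele without mGluR5 (lower) and for mGluR5 loss in Q20 mice (higher). None of 16 Cajal body proteins was called in a simple comparison, with 2 lower for the allele without mGluR5 and 3 higher for mGluR5 loss in Q20 mice at an unadjusted p below 0.05. The scaffold gene Coil was one of the latter, at 0.33 ± 0.12 (limma, adjusted p = 0.568).

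Of 17 tested genes for intron debranching and trimming, 2 were called, both subunits of the RNA exosome and both lower in the averaged effect of the Q111 allele, beside 1.32% of all genes called there and 0.825% called lower. Exosc9 changed by -0.56 ± 0.11 (limma, adjusted p = 0.0149) and Exosc8 by -0.36 ± 0.08 (adjusted p = 0.0441). Exosc9 read 7.82, 8.41 and 8.15 in Q20 mice with mGluR5, 8.21, 8.51 and 8.18 in Q20 mice without it, 7.52, 7.68 and 7.56 in Q111 mice with it, and 7.64, 7.99 and 7.49 in Q111 mice without it. Its groups did not overlap between the alleles at either receptor genotype. No gene of this list was called in a simple comparison, and 2, 3, 0 and 0 had an unadjusted p below 0.05. These make 11.8, 17.6, 0 and 0%, beside 6.84, 9.44, 6.02 and 4.36% of all genes.

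Of 43 tested genes for ribosomal RNA transcription and processing none was called in any of the 7 comparisons. With the allele, 34 were negative in the presence and 30 in the absence of mGluR5, with medians of -0.08 and -0.11, and on mGluR5 loss in Q20 mice 35 were positive with a median of 0.09. At an unadjusted p below 0.05 stood 1, 4, 1 and 0 genes in the simple comparisons. Their shares of 2.33, 9.3, 2.33 and 0% lay below the 6.84, 9.44, 6.02 and 4.36% of all genes. The smallest adjusted p was that of Polr1a, the largest subunit of RNA polymerase I, at -0.41 ± 0.09 with the allele in mice without mGluR5 (limma, adjusted p = 0.0607). A list of 25 non-coding host genes had 9 measured and tested. None of these was called, with 1, 2, 1 and 1 at an unadjusted p below 0.05 in the simple comparisons. These make 11.1, 22.2, 11.1 and 11.1% of the 9, beside 6.84, 9.44, 6.02 and 4.36% of all genes. Meg3, a maternally expressed transcript that holds no member counted here, gave 0.32 ± 0.09 with the allele in mice without mGluR5 (limma, adjusted p = 0.181). The 12 members with non-coding hosts alone had no tested host, so this list does not show how their hosts changed.

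Markers of other cell types were read beside these values. Of the lists for oligodendrocytes, astrocytes, microglia, vascular cells and choroid plexus, 1 gene was called, the mural cell transporter Abcc9. It changed by -0.46 ± 0.08 with the allele in mice without mGluR5 (limma, adjusted p = 0.0109) and by 0.46 ± 0.08 on mGluR5 loss in Q20 mice (adjusted p = 0.0203). Both comparisons share the 3 arrays of Q20 mice without mGluR5. With the allele, 7 of 8 vascular markers were negative in the presence and 8 of 8 in the absence of the receptor. Over all genes 54.1 and 56.7% were negative. The mean signal of the 8 vascular markers was 7.40 to 7.63 in Q111 mice with mGluR5 and 7.59 to 7.75 in Q20 mice with it. In mice without the receptor it was 7.54 to 7.71 with the Q111 allele and 7.83 to 7.84 with Q20. The part of cell composition in the values of the small RNAs was not tested.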

How the data were processed

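Per the series description and the submitters' processing notes, the authors made the deposited log2 signals with RMA in Partek, the description naming Partek Genomics Suite 6.5. Their criteria combined an ANOVA p-value below 0.05 with a 1.5-fold change. The table held 35556 probe sets, of which 21789 had 1 platform symbol, 1621 several and 12146 none. In R 4.3.3, limma 3.58.1 estimated a mean for each group from the 12 arrays (8 residual degrees of freedom, prior 6.88), two-sided, with Benjamini-Hochberg adjustment over 16721 genes. Errors of changes are limma's standard errors. The code was tested on simulated data. Correlations used 100000 permutations in Python 3.11.15, and plots matplotlib 3.10.9.

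Members and lists were chosen with earlier results of these data known. Named members were those called, the 2 largest rises and falls of each class and simple comparison, the 3 highest levels of each class and all Cajal body RNAs, with genes of the lists that were called or had the smallest p-values. Snora3 and Snora33 as a pair, the same-host pairs, their hosts' promoters and the motif were chosen after values were seen. Hosts are RefSeq genes (GRCm38.p6) containing a member, without regard to strand, which the table does not give. Arrays give no counts, and their number limits precision.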

Additional observations from a re-analysis of the deposited data

Results flagged for a closer look

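The effect of the Q111 allele on Snord53 differed with the receptor genotype, with an interaction of -1.74 on the log2 scale that passed limma's test (adjusted p = 0.00114). Snora3 and Snora33 moved in opposite directions with and without mGluR5, without overlap of the groups compared. Their differences of 0.54 and 0.56 did not pass with equal array weights (limma, adjusted p = 0.259 and 0.461).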

How the results depend on the processing

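Calls and counts of members depended on how arrays were weighted. Snord53 was called in its comparisons under every alternative tried. With limma's array weights, members called were 14 for the Q111 allele without mGluR5, 14 for mGluR5 loss in Q20 mice and 1 for mGluR5 loss in Q111 mice, while all genes called were 44, 3270, 2120, 25, 85, 391 and 74 in the order Q111 with, Q111 without, loss in Q20, loss in Q111, interaction, averaged Q111 and averaged loss. That estimate stopped without converging and gave 1 array a weight of 12.3. Weights estimated gene by gene, chosen after this was seen, called 6, 5, 2, 3, 4, 10 and 3 members in this order, beside 977, 932, 379, 347, 326, 1895 and 375 genes (as reported 96, 148, 50, 46, 73, 221 and 49). The interquartile range as covariate called 2 for Q111 with and 1 for loss in Q20, with 266, 353, 213, 150, 153, 488 and 170 genes. No filter on low values left 0 for Q111 without and 1 for averaged Q111. The authors' criteria gave 0 for Q111 without, 2 for the interaction and 1 for averaged loss, with 165, 51 and 17 genes for the interaction and the averages, and quantile normalization gave 76 genes for loss in Q20. The cause was not tested.

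The labels tie replicate numbers to no shared animal or batch, and 11 of 18 correlations of same-numbered arrays, not all of them, exceeded 0.1 (from -0.144 to 0.567, with those numbered 2 all at 0.339 or above), so the numbers were not used as pairs. The replicate block called 2 members for Q111 with, 3 for loss in Q111 and 4 for averaged Q111, with 204, 343, 129, 103, 107, 487 and 79 genes. Under it Snord47 was called for Q111 with (limma, adjusted p = 0.0137) and Scarna17 for loss in Q111 (adjusted p = 0.0325).

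Leaving out 1 array gave 1 to 3 members for Q111 with, 0 to 1 for Q111 without, 0 for loss in Q20, 1 to 2 for loss in Q111, 1 for the interaction, 1 to 5 for averaged Q111 and 1 to 2 for averaged loss. The medians ranged from -0.19 to -0.09 (H/ACA) and -0.23 to -0.11 (C/D) for Q111 with, -0.010 to 0.13 and -0.11 to 0.00048 for Q111 without, -0.038 to -0.00072 and -0.15 to -0.076 for loss in Q20, and 0.040 to 0.21 and -0.026 to 0.050 for loss in Q111. No called value changed sign.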

Other observations

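Snord87 was too dim to be tested. It lies within both the coding gene Mcmdc2 and the non-coding gene Snhg6, taken without regard to strand. Mcmdc2 was called, and Snhg6 was not among the tested hosts. Mcmdc2 changed by -0.54 ± 0.10 with the Q111 allele in mice without mGluR5 (limma, adjusted p = 0.0125) and by -0.83 ± 0.10 on mGluR5 loss in Q111 mice (adjusted p = 0.000425), with signals of 5.52 to 5.69 in Q111 mice without mGluR5 and of 6.02 or more in the other 9 arrays. The low signals lay below the 25th percentiles of their own arrays, which were 5.80 to 5.87.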
